A study of Mus musculus with 9 samples.

Results

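A processed pseudogene is a copy of a spliced mRNA that was reverse transcribed and inserted back into the genome. It usually has no introns, lacks the promoter of the gene it came from, and may keep a stretch of A from the poly(A) tail of that mRNA. Genes that are read strongly in the germ line, among them those of ribosomal proteins and of glycolytic enzymes, are known to have left many such copies in mouse DNA. The members described here were chosen by their measured counts: of the 9936 genes that GENCODE vM21 types as processed_pseudogene among the 55401 genes of the deposited table, 1812 had a summed count of at least 60 over the 9 libraries. That they were detected is therefore a condition of the choice and not a result. Another 3301 had 1 to 59 counts and 4823 had none.

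The libraries came from testis of male WT mice (ICR, per the methods of the study), with no age given in the labels, and all 9 were made from poly(A) RNA by Smart-seq2, which copies RNA from its A tail and amplifies the cDNA. The 3 input libraries hold RNA before precipitation, the 3 IgG libraries RNA recovered with a control antibody, and the 3 acRIP libraries RNA recovered with an antibody against N4-acetylcytidine (ac4C), the acetylated cytidine made by NAT10. An ac4C-containing β-globin RNA had been added before precipitation. Input RNA was brought to a set concentration, whereas the IgG and acRIP RNA was too scarce to be measured, so a difference between the antibodies and the input also spans a difference in starting material. Nothing states that the 3 libraries of a group came from separate animals, so the p-values measure only the spread between these libraries.

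Library totals ran from 14647542 to 31340090 counts, with the input libraries the deepest, which limits what a 0 in the other 6 shows. All 9 germ cell markers had counts in every library, and their summed level was 18000 to 20300 CPM (counts scaled to a common TMM-adjusted library total) in input, 21400 to 22000 in IgG and 22000 to 23800 in acRIP. Of the other lists, 3 of 4 Sertoli, 4 of 4 Leydig, 2 of 2 peritubular, 5 of 5 blood, 2 of 3 macrophage and 0 of 3 epididymis markers had counts in every library. Blood markers, globins among them, summed to at most 155 CPM in input, 201 to 215 in IgG and 709 to 934 in acRIP, and macrophage markers to 11.7 to 13.1, 10.8 to 14.9 and 1.12 to 2.7. The gene of 18S rRNA took 0.54% to 0.613% of counts in input, 5.14% to 5.57% in IgG and 9.35% to 10.6% in acRIP. Their part in the results on pseudogenes was not tested.

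Together the 1812 members held a nearly fixed share of the counts. It ran from 2.52% to 2.57% among input libraries, from 2.37% to 2.41% after IgG and from 2.35% to 2.37% after the ac4C antibody. Protein-coding genes held 91.2% to 91.4%, 85.8% to 86.4% and 80.9% to 82.1% in the same order. A single member, Dynlt1-ps1, had 289634 of the members' counts, while the median member had 320, and without it the share was 2.31% to 2.37% in input and 2.24% to 2.25% in acRIP. Between 1750 and 1777 members had a count in a given input library, 1712 to 1735 did after IgG and 1657 to 1672 after acRIP.

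In sequence the members stood close to the genes they were copied from. A parent, defined as the protein-coding transcript that best matched with at least 80% identity over at least 50% of the pseudogene, was found for 1671 of 1812 members (92.2%), for 83.1% of processed pseudogenes with 1 to 59 counts and for 61.4% of those with none. The median identity was 96.7% in members, 91.8% in those with 1 to 59 counts and 87.8% in those with no count. Since the deposited counts are of uniquely mapped reads, each sequence was also split into words of 31 bases and the words found once in the genome and in no transcript of another gene were counted. A median of 48.4% of a member's words were found once, against 95.3% in processed pseudogenes with no count. In 103 members no word was unique within the annotated exons, and 56 of these were among the 548 members with at least 1000 counts. Which bases placed the reads of these 103 cannot be read from a table of counts, and counts of a member and of its parent were not treated as separate evidence.

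**Figure D1:**
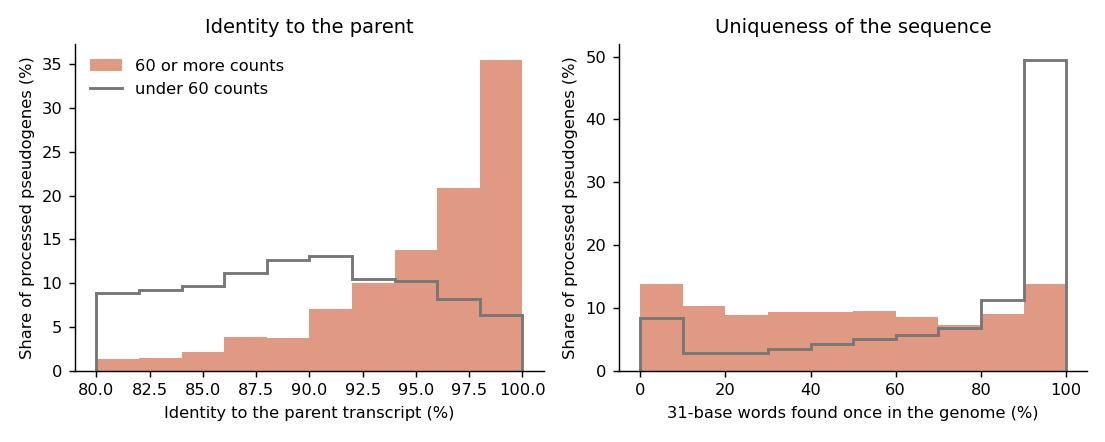
Share of processed pseudogenes (%, vertical axes) by identity to the parent transcript in bins of 2 percentage points (left, only those with a parent) and by the percentage of 31-base words found once in the genome in bins of 10 (right). Filled steps are the 1812 with a summed count of at least 60 and grey outlines the 8124 below it. The filled distribution rises toward 100% identity with a median of 96.7%, while most of the outlined sequences have 90% or more unique words.

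Windows of 90 bases show copies beside their parents. They were taken only from coding sequence of the parent aligned without gaps, so insertions, deletions and untranslated parts are not shown. Each window is centred on an exon junction of the parent transcript, so the copy reads through where the parent gene has an intron. In the pseudogene, capitals mark bases that differ from the parent, and in the parent the 2 bases on each side of the junction. The sequences are from GRCm38 (mm10) and GENCODE vM21. Dynlt1-ps1, the member with the most counts, and Gm15772, the leading copy of a ribosomal protein gene, lie at chr6:135349512-135349601 (minus strand) and chr5:3236554-3236643 (plus strand) and differ from Dynlt1c and Rpl26 at 0 and 1 of 90 bases.
Dynlt1-ps1: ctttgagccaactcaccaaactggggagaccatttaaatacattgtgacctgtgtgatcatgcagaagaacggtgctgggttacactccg
Dynlt1c: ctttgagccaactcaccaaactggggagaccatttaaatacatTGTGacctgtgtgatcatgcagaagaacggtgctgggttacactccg
Gm15772: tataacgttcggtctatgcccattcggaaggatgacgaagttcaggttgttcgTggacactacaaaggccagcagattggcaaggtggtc
Rpl26: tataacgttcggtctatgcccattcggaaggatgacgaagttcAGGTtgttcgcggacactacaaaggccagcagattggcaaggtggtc

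Members that differed strongly between antibodies are shown next, since identity varied widely among them. Gm9378 (chr11:87078866-87078955, plus strand) and Gm16030 (chr15:7342021-7342110, plus strand) had the highest fitted changes over IgG among the named members with a parent, and they differ from Rpl21 and Fkbp3 at 4 and 18 of 90 bases. Gm8546 (chr13:89578157-89578246, minus strand) and Gm14276 (chr2:156994291-156994380, minus strand) had the lowest, again among those with a parent, and they differ from Agk and Rps2 at 1 and 14 of 90 bases. Gm6981 (chr9:52002910-52002999, minus strand), the copy of Gapdh with the most counts, differs at 7 of 90.
Gm9378: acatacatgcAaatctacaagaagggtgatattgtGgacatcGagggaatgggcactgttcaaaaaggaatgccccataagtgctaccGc
Rpl21: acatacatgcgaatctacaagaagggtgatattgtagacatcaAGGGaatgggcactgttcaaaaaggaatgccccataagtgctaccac
Gm16030: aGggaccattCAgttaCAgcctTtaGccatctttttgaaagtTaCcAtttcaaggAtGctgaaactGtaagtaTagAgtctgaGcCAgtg
Fkbp3: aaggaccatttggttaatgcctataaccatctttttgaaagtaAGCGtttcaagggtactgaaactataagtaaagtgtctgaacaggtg
Gm8546: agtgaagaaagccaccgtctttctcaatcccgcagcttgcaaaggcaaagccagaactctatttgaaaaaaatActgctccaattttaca
Agk: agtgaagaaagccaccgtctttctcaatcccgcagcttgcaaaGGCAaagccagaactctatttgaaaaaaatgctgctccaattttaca
Gm14276: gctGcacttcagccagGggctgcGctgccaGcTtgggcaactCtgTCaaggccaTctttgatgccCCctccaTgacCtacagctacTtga
Rps2: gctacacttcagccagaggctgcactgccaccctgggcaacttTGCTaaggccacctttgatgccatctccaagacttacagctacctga
Gm6981: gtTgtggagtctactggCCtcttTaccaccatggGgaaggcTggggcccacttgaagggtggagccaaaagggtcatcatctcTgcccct
Gapdh: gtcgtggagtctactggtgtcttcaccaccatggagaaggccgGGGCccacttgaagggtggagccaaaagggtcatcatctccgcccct
The introns of the parents at these junctions are 482 bases in Rpl21, 841 in Fkbp3, 4612 in Agk, 320 in Rps2 and 98 in Gapdh, and the copies run on without them.

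By position, 1236 members (68.2%) lay outside all other genes, 419 (23.1%) in an intron of a protein-coding gene, 109 (6.02%) in an intron of another gene, and 48 (2.65%) overlapped an exon of another gene. The last group shares reads with that other gene if reads were counted without strand. In all, 1697 members had 1 exon and 115 had 2 or more, and their median length was 642.5 bases. The X chromosome carried 137 members (7.56%), against 9.7% of the other processed pseudogenes.

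Of the 8 members with the largest sums, a parent was found for all but Spanxn4. Dynlt1-ps1 (chromosome 6, 135349408 to 135349749), 100% identical to a transcript of the dynein light chain gene Dynlt1c, had 63703, 46101 and 48239 counts in input, 20232, 26314 and 26105 in IgG and 18116, 20148 and 20676 in acRIP. Its level fell from 2049 ± 61.4 CPM in input (SD, n = 3) to 1391 ± 15 in IgG and 1184 ± 68.8 in acRIP, a log2 difference of -0.79 (SE 0.03) between acRIP and input with an edgeR adjusted p of 1.67e-19, which is under the 2-fold limit for a call. Dynlt1c itself, whose family also holds near-identical neighbouring genes, had 342 to 854 counts per library.

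Gm12669 (chromosome 4), 99.1% identical to the glutaredoxin gene Glrx3, had 12207 to 16934 counts in input, 5909 to 7364 in IgG and 5545 to 6542 in acRIP, close to the 11928 to 17322, 5870 to 7785 and 5894 to 7151 of Glrx3. Gm15772 (chromosome 5), a copy of Rpl26, which encodes a protein of the large ribosomal subunit, stood at 368 ± 25.6 CPM in input, 416 ± 11.5 in IgG and 547 ± 15.3 in acRIP. Gm13461, in an intron of Lrp1b on chromosome 2 and 97.3% identical to the nuclear transport GTPase gene Ran, stood at 375 ± 5.11, 361 ± 7.2 and 389 ± 7.15 CPM. The levels of Gm13461 hardly moved between groups.

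Gm9824, a copy of Pebp1, fell from 479 ± 10.1 CPM in input to 296 ± 11.3 in IgG and 245 ± 8.41 in acRIP. Gm7444 on chromosome 9, 89.4% identical to Rnf19a, a ubiquitin ligase gene, stood at 367 ± 13.3, 305 ± 3.71 and 199 ± 4.89 CPM, with a log2 difference of -0.62 (SE 0.04) between acRIP and IgG, while that of Rnf19a was 0.02. Spanxn4, for which no parent was found, stood at 227 ± 7.17, 305 ± 12.6 and 300.2 ± 5.9 CPM, and 1700019M22Rik at 293 ± 13.3, 230.0 ± 9.21 and 238 ± 3.65. None of the 8 was called between acRIP and either control, since no difference passed 2-fold.

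Of the 1812 members, 1715 were among the 22510 genes that passed the filter on low counts and were tested. Admission by counts favours members that are high in a single group, so their calls are not separate from the choice. In all, 98 members reached 60 counts in the acRIP libraries and in neither other group, 205 only in input and 41 only in IgG. Such a member need not differ between groups, and the input libraries were the deepest. A call means an adjusted p under 0.05 in edgeR's quasi-likelihood test and a change of more than 2-fold. In acRIP over IgG, 194 members were higher and 223 lower, or 11.3% and 13.0% of those tested, beside 11.5% and 20.9% of all tested genes. In acRIP over input, 310 were higher and 331 lower (18.1% and 19.3%), beside 17.7% and 22.9% of all genes. In IgG over input, 186 were higher and 172 lower (10.8% and 10%), beside 13.5% and 7.22%. The shares of higher members in the antibody comparison thus lay near those of all genes, and the share of lower members below it. Members' median log2 changes were 0.01, 0.02 and -0.05 in the same order (the second was -0.03 with upper quartile scaling), and those of all genes were -0.09, -0.10 and -0.01.

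Against both controls at once, 134 members were higher in acRIP and 169 lower (7.81% and 9.85%), beside 7.88% and 17.0% of all tested genes. Of 15438 tested protein-coding genes with a summed count of at least 60, 906 were higher and 2454 lower. Of 2004 lincRNAs 232 and 507 were, of 235 unprocessed pseudogenes 21 and 53, and of 141 transcribed processed pseudogenes 12 and 19. Calls lay mostly among members with few counts. With the tested members in 4 equal bins of summed count, 59 of 429 in the lowest bin were higher and 70 lower than both controls, and in the highest 1 of 428 was higher and 6 lower.

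**Figure D2:**
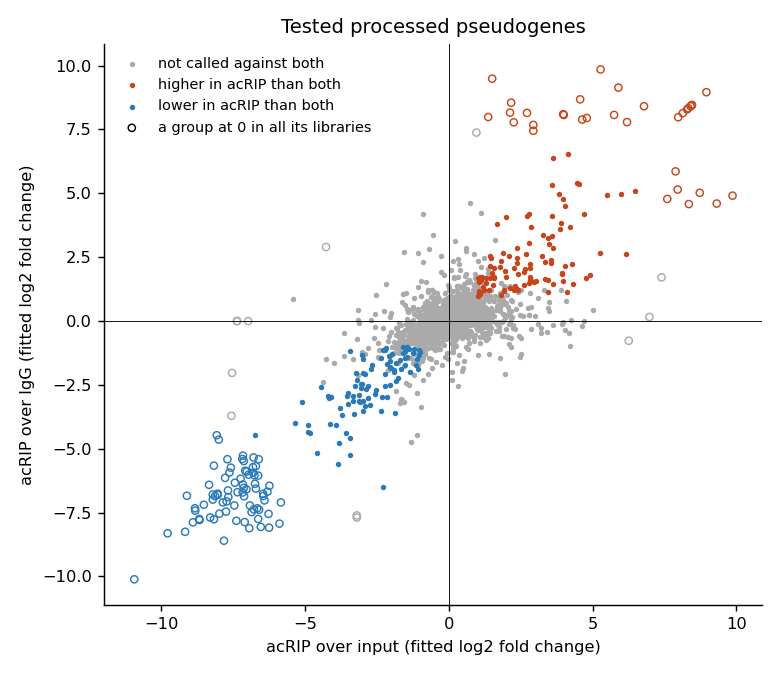
Fitted log2 fold change of each of the 1715 tested members in acRIP over input (horizontal axis) and acRIP over IgG (vertical axis), which share the acRIP libraries. Red points are the 134 higher and blue points the 169 lower than both controls. Open circles have a group at 0 in all 3 libraries, and their fitted values are neither measurements of size nor bounds; they form the clouds at the upper right and lower left.

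Many calls were of presence and absence. No count was found in any acRIP library for 95 members, in any IgG library for 32 and in any input library for 18. Of the 169 members lower than both controls, 75 were at 0 in every acRIP library, and of the 134 higher than both, 26 were at 0 in every IgG library. Among all tested genes, 1716 of 3829 lower and 241 of 1774 higher calls were of these kinds. A further 120 members were at 0 in some but not all acRIP libraries, 131 in some but not all IgG libraries and 74 in some but not all input libraries. A count of 0 allows up to 3 counts per library, or 6 if both mates of a read pair were counted, which 80.2% to 87.9% even values among members' counts of 1 to 20 leave possible. Folds against such a group are given as bounds from 3 counts per library, with the bound from 6 in brackets, and cover counting error only.

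The 6 members with the highest fitted change over IgG, among those called against both controls with no overlap between acRIP and the other libraries, were all absent from IgG. Without their acRIP counts, Wdr46-ps, Gm9378, Gm16030, Gm12697 and Gm8873 would have fallen below the summed count that admits a member. Their high acRIP values, adjusted p-values and fold bounds are therefore not separate from the choice. Among the 6, only Gm18484 had enough input counts to be admitted without acRIP. Wdr46-ps lies in an intron of Akap9 on chromosome 5 (3989006 to 3990717), and although its symbol names Wdr46, no transcript met the limits for a parent. It had 90, 98 and 99 counts in acRIP, 0, 0 and 0 in IgG and 5, 6 and 0 in input. It was at least 33.0-fold (16.5-fold) higher in acRIP than in IgG (edgeR adjusted p = 1.92e-10), and over input its log2 change was 5.28 (SE 0.53, adjusted p = 3.75e-10).

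Gm9378, the copy of Rpl21 printed above, had 58, 58 and 59 counts in acRIP, none in IgG and 0, 0 and 4 in input, at least 20.2-fold (10.1-fold) higher than IgG (edgeR adjusted p = 3.92e-08). Rpl21 had 159 to 182 counts in acRIP and 184 to 274 in IgG. Gm16030, the copy of the prolyl isomerase gene Fkbp3, lies in an intron of Egflam and had 52, 57 and 46 counts in acRIP and none in the other 6 libraries, at least 17.8-fold (8.91-fold) higher than IgG and at least 26.1-fold (13.0-fold) higher than input. The acRIP libraries of both members lay close together, and the parents did not share the pattern: the log2 change of Fkbp3 over IgG was -0.28 and that of Rpl21 -0.42.

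Gm18484, in an intron of Cntnap2, had 68, 75 and 81 counts in acRIP, none in IgG and 34, 38 and 46 in input, so that it was absent only after the control antibody. Gm12697 had 46, 46 and 36 counts in acRIP, none in IgG and 4, 4 and 0 in input. Gm8873 had 32, 45 and 40 in acRIP, none in IgG and 18, 16 and 6 in input. They were at least 25.8-fold (12.9-fold), 14.7-fold (7.37-fold) and 13.4-fold (6.69-fold) higher in acRIP than in IgG. No parent was found for any of these 3.

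The 6 lowest members were at 0 in every acRIP library, so the counts of input and IgG alone admitted them, and the same limit holds for their values. Gm6744 on the X chromosome (167445989 to 167446531), with no parent found, had 388, 293 and 271 counts in input and 90, 134 and 139 in IgG, at least 68.1-fold (34.0-fold) above acRIP for input and at least 38.1-fold (19-fold) for IgG (edgeR adjusted p = 1.28e-17 and 1.37e-14). Gm8546, the copy of the lipid kinase gene Agk in an intron of Hapln1, had 204, 121 and 109 in input and 26, 34 and 44 in IgG, at least 30.4-fold (15.2-fold) and 10.9-fold (5.46-fold) above acRIP. Agk itself had 224 to 238 counts in input, 64 to 94 in IgG and 10 to 26 in acRIP, so member and parent were both lowest in acRIP. Gm14276, the copy of Rps2, had 114, 103 and 61 in input and 28, 28 and 43 in IgG, at least 10.5-fold (5.24-fold) above acRIP for IgG. Rps2 did not share this, with 512 to 598 counts in acRIP and 467 to 635 in IgG.

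Gm2505 had 28, 57 and 20 counts in input and 32, 64 and 32 in IgG. Gm3765, a copy of Pwp1, had 20, 17 and 21 in input and 44, 24 and 18 in IgG. Gm5073 on the X chromosome had 23, 10 and 5 in input and 24, 34 and 31 in IgG. Their bounds in acRIP against IgG were at least 13.4-fold (6.70-fold), 9.62-fold (4.81-fold) and 9.38-fold (4.69-fold) lower.

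**Figure D3:**
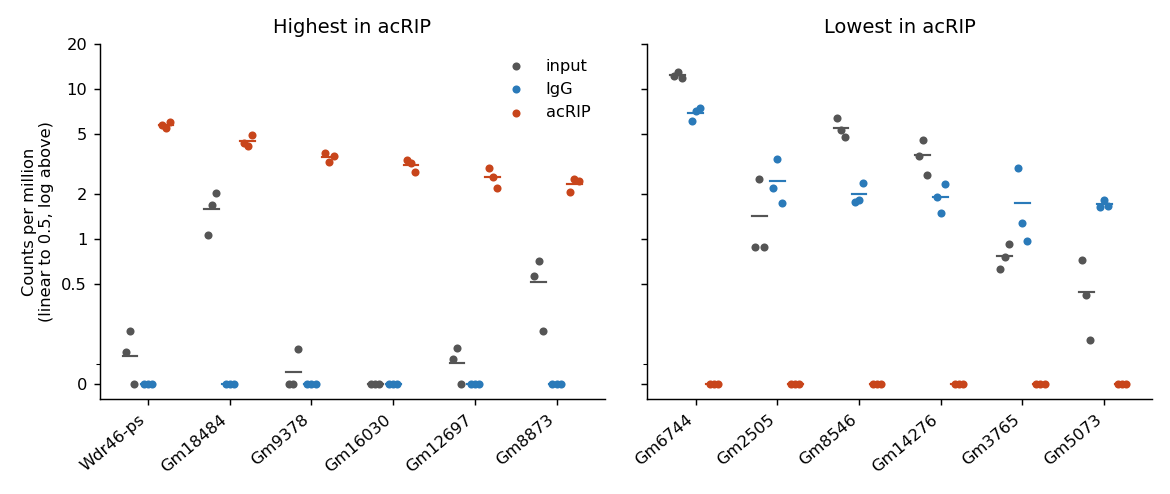
CPM of TMM-scaled totals (vertical axis, linear to 0.5 and logarithmic above) in each library for the 6 highest (left) and 6 lowest (right) members in acRIP; dots are the 3 libraries of a group and short bars their means. On the left every IgG library is at 0, and on the right every acRIP library.

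Without any ac4C antibody, members also differed between IgG and input. The 3 with the highest fitted change were absent from input: Gm10268, a copy of Rpl17, had 15, 22 and 5 counts in IgG, Gm45080, a copy of the histone gene H3f3a, had 14, 8 and 14, and Gm16147, in an intron of Zeb1, had 0, 1 and 16. They were at least 6.85-fold (3.43-fold), 5.94-fold (2.97-fold) and 2.55-fold (1.28-fold) higher in IgG, and the last rests on 1 library. At the other end, besides Gm18484, Gm13204 (a copy of Rps2) had 54, 17 and 14 counts and Gm2147 (a copy of Mospd1) 32, 32 and 15 in input, and both were at 0 in all IgG and acRIP libraries. Mospd1 was itself at 0 in acRIP and had 64 to 95 counts in IgG.

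Grouped by parent, copies of cytosolic ribosomal protein genes were the largest family, with 364 members, of which 338 were tested. In acRIP over input, 97 of them were higher and 29 lower (28.7% and 8.58%, beside 17.7% and 22.9% of all tested genes). In IgG over input, 62 were higher and 12 lower (18.3% and 3.55%, beside 13.5% and 7.22%). In acRIP over IgG 38 were higher and 31 lower (11.2% and 9.17%, beside 11.5% and 20.9% of all tested genes), and against both controls 27 and 23 (7.99% and 6.8%, beside 7.88% and 17.0%). Their median log2 change was 0.62 in acRIP over input, 0.43 in IgG over input and 0.20 in acRIP over IgG, and it stayed above 0 in each under TMM, RLE and upper quartile scaling. The 80 ribosomal protein genes they were copied from had medians of 0.53, 0.35 and 0.20, with 15 higher and 5 lower in acRIP over input. The medians of copies and parents thus lay above 0 over input after both antibodies, while most copies and parents were not called. Upper quartile scaling moved the IgG over input median of all genes from -0.01 to -0.11, and that of the ribosomal copies was then 0.33.

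Within that family, Rps2-ps13 on the X chromosome, 99.2% identical to Rps2, had 177, 144 and 132 counts in input, 847, 1001 and 1017 in IgG and 872, 842 and 812 in acRIP. Its log2 change was 3.11 (SE 0.10) in acRIP over input and 3.23 (SE 0.10) in IgG over input (edgeR adjusted p = 8.56e-23 and 3.36e-23), and -0.11 between the antibodies (adjusted p = 0.243). Rpsa-ps10, a copy of the laminin receptor and ribosomal protein gene Rpsa, had 874 to 1067 counts in input, 1547 to 2010 in IgG and 1320 to 1486 in acRIP. Gm8292, in an intron of Boll and a copy of Rps24, had 834 to 1432, 1278 to 1572 and 1918 to 2483. Of the 6 copies of Rps28, 5 were higher in acRIP than in input, and of the 8 copies of Rps24, 5 were, beside 17.7% of all tested genes. Rps13-ps2, 100% identical to Rps13, rose by 1.16 (SE 0.05) in acRIP over input.

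Genes of oxidative phosphorylation encode mitochondrial respiratory chain and ATP synthase subunits. Their copies (50 members, 49 tested) had a median of 0.47 in acRIP over input. There 5 were higher and 0 lower by edgeR (10.2% and 0%, beside 17.7% and 22.9% of all tested genes). At an unadjusted p under 0.05 the counts were 24 and 4, and by DESeq2 they were 5 and 0. The leading one, Gm15920, a copy of Ndufa12, changed by -0.19 there. Copies of genes of glycolysis had 5 higher and 7 lower of 34 tested in acRIP over input, translation factors 3 and 9 of 54, chaperones and prolyl isomerases 5 and 10 of 35, high mobility group and nucleosome proteins 6 and 5 of 30, cytoskeleton 3 and 6 of 27, hnRNP and splicing factors 4 and 6 of 32, proteasome and ubiquitin 2 and 2 of 36, and 14-3-3 proteins and small GTPases 2 and 5 of 19. Both members copied from ferritin genes were tested and 1 was higher. Gm7964, a copy of Hnrnpk, was among the lower ones, with 3604 to 5083 counts in input, 1199 to 1569 in IgG and 804 to 972 in acRIP and a log2 change of -1.55 in acRIP over input. The 923 tested members with other parents had 126 higher and 214 lower (13.7% and 23.2%) and a median of -0.23.

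**Figure D4:**
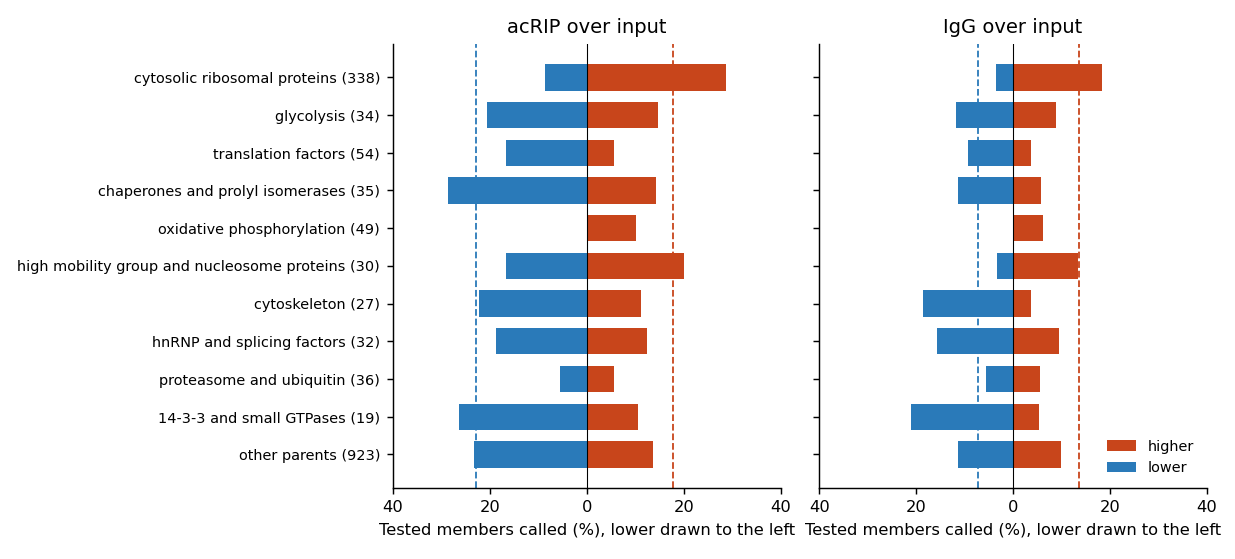
Percentage of the tested members of each parent family called higher (red, to the right) and lower (blue, to the left) in acRIP over input and in IgG over input, with the number tested in brackets. Dashed lines mark the percentages of all tested genes. Copies of ribosomal protein genes lie beyond the right dashed line in both panels, at 28.7% and 18.3%; the lower share of oxidative phosphorylation copies is 0.

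An A-rich stretch just past the end, at least 12 A in a window of 15 within 100 bases, was found for 380 members (21.0%) and for 13.2% of the other processed pseudogenes. The 40 last bases and 60 downstream are printed for 3 of the members that had such a tract and a poly(A) signal and were higher in acRIP than in input, at chr6:145266738-145266837, chr6:122457335-122457434 and chrX:52899430-52899529 (all plus strand, GRCm38), with the signal and the window richest in A in capitals. They had the largest sums among such members with 1 exon. Rps25-ps1 and Gm8430, which lies in an intron of Rimklb, are copies of Rps25 and Rps27a and were chosen after their values were seen.
Rps25-ps1: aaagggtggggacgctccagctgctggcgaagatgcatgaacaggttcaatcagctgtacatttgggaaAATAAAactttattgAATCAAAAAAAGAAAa
Gm8430: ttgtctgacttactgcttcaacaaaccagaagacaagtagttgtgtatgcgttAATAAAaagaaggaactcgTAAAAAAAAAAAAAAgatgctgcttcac
Rps2-ps13: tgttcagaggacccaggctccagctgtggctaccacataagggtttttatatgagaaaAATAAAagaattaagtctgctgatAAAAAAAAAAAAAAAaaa
Rps25-ps1 had 923 to 1590 counts in input, 1182 to 1342 in IgG and 1210 to 1722 in acRIP, and Gm8430 had 684 to 1104, 948 to 1109 and 1075 to 1255, and their log2 changes in acRIP over input were 1.01 (SE 0.08) and 1.11 (SE 0.07).

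Of 354 tested members with a tract, 87 were higher and 22 lower in acRIP over input (median 0.54), and 55 were higher and 17 lower in IgG over input. Of 1361 without it, 223 were higher and 309 lower in acRIP over input (median -0.12). The shares in acRIP over input were 24.6% and 6.21% with a tract and 16.4% and 22.7% without, beside 17.7% and 22.9% of all tested genes. In IgG over input they were 15.5% and 4.8% with a tract, beside 13.5% and 7.22% of all tested genes. The tract and the ribosomal family overlap, as 270 of the 380 members with a tract were copies of ribosomal protein genes. Among ribosomal copies the medians in acRIP over input were 0.63 with a tract (n = 251) and 0.57 without (n = 87). Among all other members they were 0.15 with it (n = 103) and -0.17 without (n = 1274). With or without the tract, copies of ribosomal protein genes were thus above the rest. Signals AATAAA or ATTAAA, sought on the strand of the pseudogene in its last 60 bases and the next 40, were present in 19.6% of members and 17.4% of the others.

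Copies of Odc1, which encodes the enzyme that starts polyamine synthesis, moved together in IgG over input. Gm7993 had 587, 464 and 431 counts in input, 1728, 2390 and 2052 in IgG and 1394 to 1706 in acRIP. All 6 tested copies were higher in IgG than in input, by log2 1.56 to 2.62, and 5 of them were higher in acRIP than in input. Of all tested genes, 13.5% and 17.7% were higher in these comparisons. Between the antibodies their log2 changes ran from -0.67 to 0.25, all within 2-fold, and that of Gm7993 was -0.32 (SE 0.06, edgeR adjusted p = 9.03e-05). Odc1 itself changed by 2.47 (SE 0.05) in IgG over input and 2.48 (SE 0.05) in acRIP over input. The copies share 94.8% to 97.8% of their sequence with Odc1, so they are not independent of it or of each other.

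Copies of Smarca5, a chromatin remodeller, likewise had 5 of 5 higher in IgG over input (log2 1.5 to 2.5, parent 1.97), and 2 of these, among them Gm13034 with 86, 129 and 122 counts in IgG and 23, 50 and 24 in acRIP, were lower in acRIP than in IgG. Copies of the α-tubulin gene Tuba1b went the other way, with 4 of 5 lower in IgG over input, while Tuba1b changed by 0.49. Gm14150, one of them, had 161, 157 and 122 counts in input, 8, 20 and 22 in IgG and 29, 56 and 18 in acRIP. Of 7 copies of AF366264, 5 were lower in acRIP than in input, against a change of -0.69 in AF366264. Phgdh, of the serine synthesis pathway, had 14 copies, of which 1 was higher and 4 lower in acRIP than both controls. Phgdh itself changed by -1.60 (SE 0.21) in acRIP over IgG. Of all tested genes, 13.5% were higher and 7.22% lower in IgG over input, and 22.9% were lower in acRIP over input. In acRIP over IgG 20.9% of them were lower, and against both controls 7.88% were higher and 17.0% lower.

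The 19 copies of Gapdh, the glycolytic enzyme often used as a reference gene, differed widely from each other. Gapdh had only 0 to 40 counts per library, whereas its copies together had 26708 over the 9 libraries. Gm6981 alone had 1995, 1520 and 1504 in input, 1231, 1703 and 1535 in IgG and 1492, 1607 and 1442 in acRIP. Of the 18 tested copies, 4 were higher than both controls in acRIP and 3 lower (22.2% and 16.7%, beside 7.88% and 17.0% of all tested genes). Gm12017 had 2, 2 and 2 counts in input, 14, 12 and 0 in IgG and 46, 52 and 64 in acRIP, while Gm8349 had 33, 47 and 42 in input, 16, 6 and 12 in IgG and none in acRIP. Gm12017 and Gm8349 were chosen after their values were seen. A uniquely mapped count of 1 copy does not say from which of these genes the RNA came.

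This held more widely. Of 979 parents in the table, 170 (17.4%) had fewer counts than their members together, as had 45 of the 80 ribosomal protein parents and 30 of the 51 parents with 5 or more members. Per length (FPKM, which divides counts by length and depth), the median member in input stood at 7.23% of its parent at 80% to 90% identity, at 7.52% at 90% to 95%, at 21.4% at 95% to 98%, at 78.9% at 98% to 99.5% and at 366% above that. Above 99.5%, 160 of 204 members exceeded their parent. Among the members with identical or nearly identical sequence, Gm10123 (a copy of the prolyl isomerase gene Ppia) had 4027 to 5658 counts in input and Gm13835 (a copy of the proteasome gene Psma3) 4057 to 5708.

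The difference between member and parent was smaller where they were closer in sequence, up to 99.5% identity. The median absolute difference between the log2 change of a member and of its parent in acRIP over IgG was 1.41 at 80% to 90% identity (n = 179 pairs), 0.57 at 90% to 95% (n = 337), 0.41 at 95% to 98% (n = 449), and 0.35 both at 98% to 99.5% (n = 364) and above (n = 204). In acRIP over input it was 1.74, 0.69, 0.56, 0.49 and 0.53. Across pairs, Pearson's r of the change in acRIP over input was -0.18, 0.22, 0.51, 0.57 and 0.24. In acRIP over IgG it was -0.19, 0.03, 0.23, 0.42 and -0.01. Spearman's rho, which uses ranks, was 0.03, 0.41, 0.59, 0.65 and 0.46 in acRIP over input. In acRIP over IgG rho was -0.09, 0.15, 0.4, 0.45 and 0.3, so the value near 0 for the most identical pairs held for Pearson's r only. These are descriptions only, since many pairs share a parent and all share the libraries. Fitted changes of groups at 0 are included, and counts vary with identity. The part of either in these differences was not tested. Of 135 members with a tested parent that were higher in acRIP than IgG, 4 had a parent that was also higher. Of 190 lower ones, 30 had a parent that was also lower. Among all 945 tested parents, 16 were higher and 56 lower in that comparison.

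**Figure D5:**
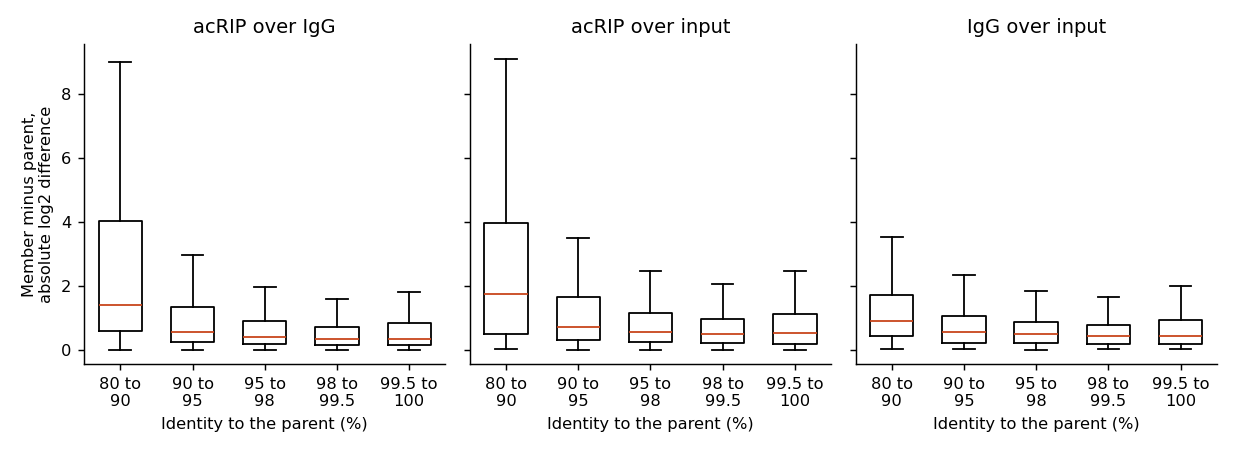
Absolute difference in log2 fold change between a member and its parent (vertical axes) by their identity (horizontal axes) in the 3 comparisons; lines in boxes are medians, boxes the middle 50% of pairs, and whiskers reach 1.5 times the box height, with points beyond not drawn. The median in acRIP over IgG falls from 1.41 to 0.35.

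Calls also varied with identity. Higher than both controls were 30 of 194 tested members at 80% to 90% identity, 26 of 348 at 90% to 95%, 25 of 457 at 95% to 98%, 9 of 373 at 98% to 99.5% and 2 of 207 above. These are 15.5%, 7.47%, 5.47%, 2.41% and 0.966%, beside 7.88% of all tested genes. Lower than both were 41, 33, 29, 25 and 16 of the same members, or 21.1%, 9.48%, 6.35%, 6.7% and 7.73%, beside 17.0% of all tested genes. The lower share thus did not go on falling above 95% identity. Of the 136 tested members with no parent, 42 were higher and 25 lower (30.9% and 18.4%), and their median change in acRIP over IgG was 0.48, or 0.54 with groups at 0 set to their bounds. Among these, 16 of the 32 in an intron of a protein-coding gene were higher than both controls and 3 lower. Outside other genes, 22 of the 97 were higher and 22 lower. By uniqueness, 2 of 247 members with under 10% unique words were higher than both and 18 lower (0.81% and 7.29%). With at least 75% unique words, 71 of 441 were higher and 65 lower (16.1% and 14.7%). Counts, identity and uniqueness vary together here, and their separate parts were not tested.

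By position, in introns of protein-coding genes 42 of 393 tested members were higher than both controls and 28 lower, with 20 and 10 of 182 on the strand of the host and 22 and 18 of 211 on the other strand. Outside other genes 82 of 1170 were higher and 124 lower. The shares were 10.7% and 7.12% in introns of protein-coding genes and 7.01% and 10.6% outside other genes. Of all tested genes, 7.88% were higher and 17.0% lower than both controls. On the X chromosome 2 of 127 were higher and 18 lower (1.57% and 14.2%), beside 7.81% and 9.85% of all tested members.

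The limit of 60 counts fell within a dense range, with 110 members at 60 to 70 and 122 processed pseudogenes at 50 to 59. Just inside, at 60, were AC126041.1, with 6 to 24 counts per library in input and none in acRIP, Atp5l-ps1, with 12 to 16 in acRIP and 0 to 2 in input, Gm13351, with 4 to 11 throughout, and Gm13534, with 10 to 22 in input and none in acRIP. Just outside, at 59, were Gm12435, with 2 to 10 throughout, Gm18960, with 11, 34 and 14 in acRIP and none elsewhere, Gm38233, with 4 to 19 in input and none in acRIP, and Gm8174, with 0 to 2 in acRIP and 4 to 16 elsewhere.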

How the data were processed

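Poly(A) RNA of mouse testis was sequenced in 9 libraries: 3 input, 3 IgG and 3 acRIP, grouped by the labels. The authors trimmed reads with Trim Galore 0.6.7, aligned them to mm10 with STAR 2.7.10a and counted uniquely mapped reads per gene with featureCounts 2.0.2, and the deposited values are these raw counts (14647542 to 31340090 per library). Strand and mate settings are not given in the sources used here. Reads that the aligner placed equally well at several genome sites are absent from such counts. The 103 members with no unique word still had counts, so likeness to another gene did not by itself keep reads out.

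Here gene types came from GENCODE vM21, whose coordinates matched for all 1812 members. The members and lists were chosen with earlier results of these data known. Tests used edgeR 4.0.16 in R 4.3.3 (filterByExpr, TMM, quasi-likelihood, 1 mean per group, all 9 libraries), with Benjamini-Hochberg adjustment over 22510 genes and calls at adjusted p under 0.05 and a change over 2-fold. On simulated data for acRIP over IgG this recovered 90.5% of 200 genes changed 3-fold, among 21664 genes. The changed genes were drawn only above a minimum mean count, so the rate does not cover the members with the fewest counts. Parents were sought with BLAST 2.17.0.

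Named were the 8 members with the largest summed count, the 6 highest and 6 lowest over IgG among those called against both controls with no overlap, the 3 highest and 3 lowest in IgG over input, 4 on each side of the limit, the leading member of each parent family or parent with at least 5 members, and the 6 leading -ps symbols. Families were ribosomal proteins, glycolysis, translation factors, chaperones, oxidative phosphorylation, high mobility group and nucleosome proteins, cytoskeleton, hnRNP and splicing factors, proteasome and ubiquitin, 14-3-3 and GTPases, and ferritins. Alternatives were DESeq2 1.42.0, other scalings, filters and library sets, glmTreat, halved counts, a replicate block and other limits for members, parents and overlaps.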

Additional observations from a re-analysis of the deposited data

How the results depend on the processing

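In the order higher then lower, the main counts of called members were 194 and 223 in acRIP over IgG, 310 and 331 in acRIP over input, 186 and 172 in IgG over input, and 134 and 169 in acRIP over both. A test against a 2-fold change itself gave 106 and 145, 201 and 211, 91 and 61, and 75 higher against both. Halved counts, for mates counted separately, gave 145 lower in acRIP over IgG and 104 lower against both. Fitting only the libraries compared gave 85 lower against both. Members with at least 120 counts gave 86 higher and 112 lower against both. With DESeq2, RLE or upper quartile scaling, either other filter on low counts, or a limit of 30 counts, every one of these 8 counts stayed within 1.5 times its main value. With the replicate block the counts were 189 and 216, 298 and 314, 176 and 156, and 127 and 165. The block changed none by over 1.5 times. Libraries with the same number correlated at -0.0066 to 0.0351 in their deviations from the group means. Those with different numbers correlated at -0.0295 to 0.0271. The labels give a shared number only, and these correlations cannot settle whether the libraries were paired.

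Leaving out 1 library at a time gave 170 to 194 higher and 214 to 232 lower in acRIP over IgG, 287 to 321 and 317 to 338 in acRIP over input, 170 to 188 and 144 to 174 in IgG over input, and 114 to 132 and 167 to 177 against both. Parents numbered 1462 at 90% identity and 1637 at 80% coverage, against 1671. Overlaps with an exon of another gene numbered 14 on the same strand and 11 over at least 50% of the length, against 48. Of 4609 values of the 89 named members under the alternatives, 59 lost and 15 gained a call and none reversed. Unique counting, oligo(dT) priming, unknown strand and low antibody yields limit what a count of 1 copy shows, and the cause of each shift was not tested.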
